A study of Mus musculus with 4 samples.

Results

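The genes described here are the secreted and membrane-bound matrix proteases of the Mmp and Adamts families and their tissue inhibitors, the Timp genes. They were taken as every non-control probe whose gene name in the scanner files began with Mmp, Timp or Adamts followed by a digit, which gave 43 genes (21 Mmp, 4 Timp and 18 Adamts) on 72 probes, of 28090 genes and 41174 probes on the array. Matrix metalloproteases are zinc endopeptidases that are made as inactive precursors and, once activated, cut collagens, basement membrane and many non-matrix proteins. TIMPs bind their active sites, and ADAMTS proteases cut procollagens, proteoglycans such as versican and aggrecan, or von Willebrand factor. In the mouse prostate, gland epithelium and the surrounding stroma of fibroblasts and smooth muscle make different members of these families.

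Prostate RNA was measured in 4 groups of male mice 8 weeks of age: TRAMP after TmT, TRAMP after oil, C57BL/6 after TmT and C57BL/6 after oil. In TRAMP mice a rat probasin promoter drives the SV40 early region in prostate epithelium. Indirect effects of the transgene on stroma were not tested. The labels do not give the strain background of the TRAMP animals. TmT, given once by gavage at 600 mg/kg, is a mixture of tocopherols (vitamin E forms) rich in gamma-tocopherol, and oil is olive oil alone. All animals ate AIN-76A diet for the preceding week, were fasted overnight before gavage and were killed 12 h after it. Each group had 3 mice but 1 array, and the labels do not say whether an array holds 1 mouse or a pool, so no difference below has a replicate check. With 1 array a group, the 4 comparisons between pairs of arrays were read as sizes only, against a threshold of 2-fold (1 on the log2 scale).

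Values are log2 of the background-subtracted Cy3 signal minus log2 of the array's 75th percentile, so 0 is the 75th percentile of the array, and the ± beside a difference is the scanner software's error for the spots, which holds no variation between mice. That percentile was 71.3 signal units on the TRAMP TmT array, 139 on the TRAMP oil array, 118 on the C57BL/6 TmT array and 161 on the C57BL/6 oil array, and the share of spots well above background ran from 63.9% on the TRAMP TmT array to 74.1% on the C57BL/6 oil array. The TRAMP TmT array was thus the dimmest. Checked against the tissue label, the 8 luminal prostate markers were well above background on every array. Their summed signal, in multiples of the 75th percentile, was 1070 on the TRAMP TmT array, 557 on the TRAMP oil array, 1646 on the C57BL/6 TmT array and 1247 on the C57BL/6 oil array. Markers of neighbouring tissues were present as well: seminal vesicle genes summed to between 1928 and 2221 and skeletal muscle genes to between 167 and 303. The TRAMP oil array stood apart in fat: 6 adipocyte genes measured there were all at least 2-fold higher than on the C57BL/6 oil array, and the adipocyte sum was 29.1 on the TRAMP TmT array, 247 on the TRAMP oil array, 23.6 on the C57BL/6 TmT array and 44.1 on the C57BL/6 oil array. That array enters 2 of the comparisons below, TRAMP against C57BL/6 after oil and TmT against oil in TRAMP. TRAMP against C57BL/6 after TmT does not use it, and no treatment comparison in TRAMP is possible without it.

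A gene was represented by its brightest probe and counted as measured in a comparison where that probe was well above background on both arrays. By this measure 23 of the 43 genes were present on all 4 arrays (53.5%, against 60.6% of the 27974 genes with values), 10 on some and 10 on none. All 4 Timp genes, 11 of 18 Adamts genes and 8 of 21 Mmp genes were present throughout. The 10 that were not well above background on any array were Mmp10, Mmp12, Mmp13, Mmp19, Mmp20, Mmp25, Adamts4, Adamts6, Adamts13 and Adamts18; they include the stromelysin Mmp10, the macrophage elastase Mmp12, the collagenase Mmp13, the enamel protease Mmp20, the aggrecanase Adamts4 and the von Willebrand factor protease Adamts13. For these genes the arrays show only that the probe was dim. Over the 23 genes present on all arrays, the median distance between the highest and the lowest array was 0.79 log2 units (0.84 for all 16961 genes present on all arrays), and 8 (34.8%) spanned at least 2-fold, against 37.7% of all genes. As a family they therefore varied about as much as the array as a whole. The widest span was that of Mmp7, 5.12, and the narrowest that of Mmp1a, 0.19.

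**Figure D1:**
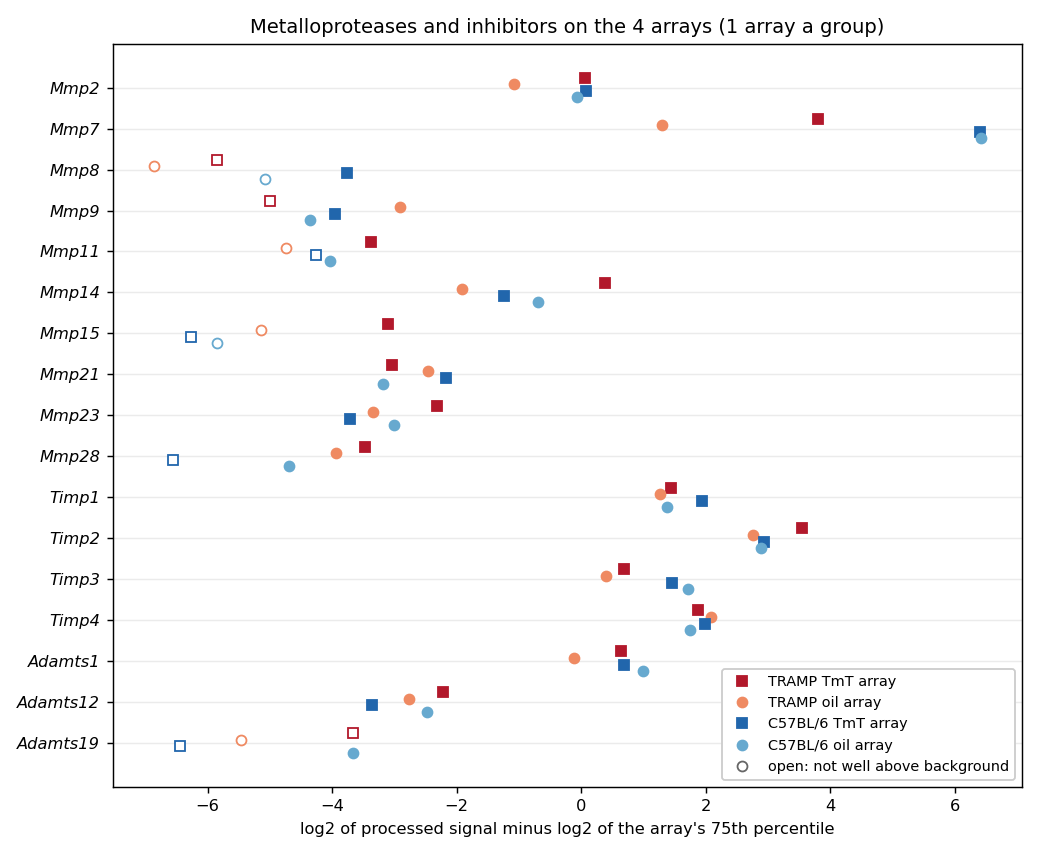
Values of the 4 Timp genes and of 13 Mmp and Adamts genes with a 2-fold difference or limit, on the 4 arrays, 1 array per group; the horizontal axis is log2 signal minus log2 of the array's 75th percentile, and open symbols are not well above background. Mmp7 has the widest spread, at 3.81 and 1.30 on the TRAMP arrays against 6.40 and 6.42 on the C57BL/6 arrays, while the 4 symbols of Timp4 nearly coincide.

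Mmp7, matrilysin, is a small metalloprotease that lacks the hemopexin domain and is made by glandular epithelium. It was 3.81 in TRAMP after TmT, 1.30 in TRAMP after oil, 6.40 in C57BL/6 after TmT and 6.42 in C57BL/6 after oil, read by 1 probe (mm9 chr9:7697641-7697700). Both TRAMP arrays lay below both C57BL/6 arrays, and the C57BL/6 arrays were nearly equal to each other. In TRAMP prostate Mmp7 was lower than in C57BL/6 prostate by 2.59 ± 0.20 after TmT and by 5.12 ± 0.20 after oil on the log2 scale, or 6.03-fold after TmT and 34.8-fold after oil. TmT against oil gave 2.51 ± 0.20 in TRAMP, 5.69-fold higher, and -0.02 ± 0.20 in C57BL/6. Of the 23 genes measured in both genotype comparisons, it was the only one that passed 2-fold the same way in both. Some markers of luminal epithelium moved with it: Pbsn, the probasin gene, was 5.06 in TRAMP after TmT, 4.11 in TRAMP after oil, 7.09 in C57BL/6 after TmT and 7.06 in C57BL/6 after oil, and Tgm4, the prostate transglutaminase, was 6.54, 3.90, 8.11 and 8.01 on the same arrays. The part of cell composition in the Mmp7 difference was not tested, and in whole tissue fewer cells of a type and less RNA per cell cannot be told apart.

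Mmp7 belongs to a run of metalloprotease genes on chromosome 9, where 8 of the 21 Mmp genes had their probes between 7282762 and 7697700 (mm9). Of these, Mmp7 and Mmp1a were present on all arrays, Mmp3 and Mmp8 on some, and Mmp10, Mmp12, Mmp13 and Mmp20 on none. Mmp1a, an interstitial collagenase of the mouse, was -1.70 in TRAMP after TmT, -1.65 in TRAMP after oil, -1.70 in C57BL/6 after TmT and -1.84 in C57BL/6 after oil, so the 2 genes of the run that were present throughout had the widest and the narrowest span among the 23 genes. For Mmp1a this rests on the brighter of 2 probes for the same transcript. The other Mmp1a probe was dim on every array: -5.82 in TRAMP after TmT, -6.81 in TRAMP after oil, -5.98 in C57BL/6 after TmT and -6.89 in C57BL/6 after oil. A close copy, Mmp1b, lies beside Mmp1a in the mouse, and how far its RNA binds the Mmp1a probes was not tested. The promoters of Mmp7 and Mmp1a, 250 bases up to the transcription start from RefSeq (GRCm38.p6), are printed with those of Mmp14 and Timp3, described further on, to show which motif letters the 2 neighbours share and the other 2 lack. Capitals mark 4 short motifs, searched on both strands: AP-1 (TGANTCA), PEA3 (AGGAAG), Sp1 (the letters GGGCGG) and TATA (the letters TATAAA). No 2 matches overlap in these 4 promoters, and all 4 genes lie on the + strand.
Mmp7: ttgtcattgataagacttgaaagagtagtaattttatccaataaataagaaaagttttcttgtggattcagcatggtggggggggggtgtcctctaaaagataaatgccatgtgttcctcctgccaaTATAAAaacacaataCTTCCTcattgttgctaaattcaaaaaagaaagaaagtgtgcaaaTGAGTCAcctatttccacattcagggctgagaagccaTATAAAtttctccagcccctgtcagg
Mmp1a: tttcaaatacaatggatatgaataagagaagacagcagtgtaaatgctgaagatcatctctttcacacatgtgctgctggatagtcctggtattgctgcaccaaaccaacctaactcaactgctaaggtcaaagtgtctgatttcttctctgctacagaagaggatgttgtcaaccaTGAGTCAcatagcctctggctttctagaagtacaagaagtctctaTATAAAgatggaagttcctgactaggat
Mmp14: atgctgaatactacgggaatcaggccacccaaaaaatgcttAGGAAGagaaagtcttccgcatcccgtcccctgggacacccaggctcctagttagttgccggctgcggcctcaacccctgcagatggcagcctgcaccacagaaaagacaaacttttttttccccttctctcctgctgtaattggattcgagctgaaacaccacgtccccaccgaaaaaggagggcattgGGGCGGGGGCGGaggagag
Timp3: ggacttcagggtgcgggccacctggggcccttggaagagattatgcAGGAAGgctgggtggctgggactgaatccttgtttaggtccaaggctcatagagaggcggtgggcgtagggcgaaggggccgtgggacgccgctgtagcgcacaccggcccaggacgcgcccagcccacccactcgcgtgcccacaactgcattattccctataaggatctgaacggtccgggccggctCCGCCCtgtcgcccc
These are chr9:7691840-7692089 for Mmp7, chr9:7463891-7464140 for Mmp1a, chr14:54431348-54431597 for Mmp14 and chr10:86300162-86300411 for Timp3. The table lists 2 promoters for Mmp7, and the upstream one is printed; it holds AP-1 63 bases before the start and TATA 26 bases before it, with a further TATA at 123 and PEA3 at 108. The other Mmp7 promoter, at chr9:7692091-7692340, holds neither AP-1 nor TATA letters and has PEA3 at 142. That of Mmp1a holds AP-1 at 73 and TATA at 28. Mmp14 has Sp1 at 19 and 13 and PEA3 at 209, and Timp3 has Sp1 at 15 and PEA3 at 204, with neither AP-1 nor TATA letters in the window. Across the 29 of the 43 genes with a promoter in the RefSeq table, 7 held AP-1 in at least 1 listed promoter (6.75% of all 32851 promoters did), and these 7 were all genes of the chromosome 9 run: Mmp1a, Mmp3, Mmp7, Mmp10, Mmp12, Mmp13 and Mmp20. TATA was in 8 (12.4% of all promoters), PEA3 in 12 (29.5%) and Sp1 in 16 (32.7%). The matches describe letters only, and genes with AP-1 letters ranged from Mmp7, bright on every array, to Mmp10, Mmp12, Mmp13 and Mmp20, dim on every array.

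The gelatinases and the membrane-type protease that activates Mmp2 come next. Mmp14, a membrane-anchored collagenase that also activates the Mmp2 precursor, was 0.38 in TRAMP after TmT, -1.92 in TRAMP after oil, -1.24 in C57BL/6 after TmT and -0.70 in C57BL/6 after oil (probe at mm9 chr14:55059969-55060028). It was thus highest in one TRAMP array and lowest in the other, with both C57BL/6 arrays between. TRAMP minus C57BL/6 was 1.63 ± 0.21 after TmT and -1.23 ± 0.21 after oil, and TmT minus oil was 2.31 ± 0.21 in TRAMP and -0.55 ± 0.21 in C57BL/6. Among the 23 genes it was the only one past 2-fold in opposite directions in the 2 genotype comparisons, as were 0.46% of the 16961 genes present on all arrays. A second, much dimmer Mmp14 probe was well above background on the oil arrays only, where TRAMP minus C57BL/6 was -0.76. Mmp2, gelatinase A, made mainly by stromal cells, was 0.07 in TRAMP after TmT, -1.08 in TRAMP after oil, 0.07 in C57BL/6 after TmT and -0.07 in C57BL/6 after oil. Only the TRAMP oil array was low. The genotype difference of Mmp2 was -0.0015 ± 0.21 after TmT and -1.01 ± 0.21 after oil, and TmT minus oil was 1.15 ± 0.21 in TRAMP and 0.14 ± 0.20 in C57BL/6.

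Mmp9, gelatinase B, typical of neutrophils and macrophages, was -4.99 and not well above background in TRAMP after TmT, against -2.90 in TRAMP after oil, -3.96 in C57BL/6 after TmT and -4.35 in C57BL/6 after oil. Of the 28 genes measured, it was the only one at least 2-fold higher in TRAMP than in C57BL/6 after oil, by 1.45 ± 0.35. A second Mmp9 probe, printed 10 times on the array, gave 0.01 for the same comparison, and the first probe gave 0.31 without the scanner software's detrending, so the difference rests on 1 spot and its processing. TmT against oil in TRAMP was at least 1.54-fold lower for Mmp9, where "at least" sets the bright array against the weakest signal that counted as well above background on the dim one, or against the gene's own dim value where that was higher. Of 7 neutrophil markers, S100a8, Ela2, Ngp and Camp were not well above background on any array, while Mpo and Ltf were on all 4 and S100a9 on 3. These 3 did not follow Mmp9: Ltf was -0.37 in TRAMP after TmT, -1.47 in TRAMP after oil, -1.60 in C57BL/6 after TmT and -0.48 in C57BL/6 after oil, and both Mpo (-2.99 after TmT and -3.67 after oil) and S100a9 (-2.24 after TmT, -5.08 and dim after oil) were higher after TmT than after oil in TRAMP, where Mmp9 was lower. The macrophage marker sum was 10.1 in TRAMP after TmT, 10.4 in TRAMP after oil, 10.4 in C57BL/6 after TmT and 14.1 in C57BL/6 after oil.

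Other Mmp genes that passed 2-fold somewhere were weak. Mmp23, a membrane-anchored member without the usual hemopexin domain, was -2.31 in TRAMP after TmT, -3.35 in TRAMP after oil, -3.71 in C57BL/6 after TmT and -3.00 in C57BL/6 after oil. Its genotype difference was 1.40 ± 0.32 after TmT and -0.35 ± 0.26 after oil, and TmT minus oil was 1.03 ± 0.27 in TRAMP and -0.71 ± 0.31 in C57BL/6. Like Mmp14, Mmp23 was highest in TRAMP after TmT. Mmp21, a protease known from left-right patterning, was -3.04 in TRAMP after TmT, -2.46 in TRAMP after oil, -2.17 in C57BL/6 after TmT and -3.19 in C57BL/6 after oil. Of 25 genes measured, it was the only one past 2-fold for TmT against oil in C57BL/6, at 1.02 ± 0.24, and was -0.57 ± 0.30 for the same treatment in TRAMP. Mmp28, epilysin, an epithelial protease, was -3.47 in TRAMP after TmT, -3.93 in TRAMP after oil, -6.56 and not well above background in C57BL/6 after TmT, and -4.69 in C57BL/6 after oil. TRAMP exceeded C57BL/6 at least 2.14-fold after TmT and by 0.76 ± 0.39 after oil, with both TRAMP arrays above both C57BL/6 arrays. This rests on the brighter Mmp28 probe, which did not match RefSeq by accession. The other Mmp28 probe, which did match, was not well above background on any array. After oil that probe read -6.97 in TRAMP and -5.81 in C57BL/6.

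Mmp15, Mmp11, Mmp8 and Adamts19 were measured on only 1 or 2 arrays each and allow lower limits. Mmp15, a membrane-type protease, was well above background only in TRAMP after TmT, at -3.10, which was at least 2.76-fold above C57BL/6 after TmT and at least 3.37-fold above TRAMP after oil. Mmp11, stromelysin-3, typical of fibroblasts, was -3.38 in TRAMP after TmT and -4.04 in C57BL/6 after oil and dim on the other 2 arrays, so TmT against oil in TRAMP was at least 2.55-fold higher. Mmp8, the neutrophil collagenase, was present only in C57BL/6 after TmT, at -3.77, at least 2.10-fold above C57BL/6 after oil. Adamts19 was present only in C57BL/6 after oil, at -3.66, from which TRAMP after oil was at least 2.30-fold lower; TRAMP after TmT read -3.67 without counting as well above background. The values of all 4 genes were not far above the weakest signal that counted as measured, which was -3.53 in TRAMP after TmT, -4.86 in TRAMP after oil, -4.57 in C57BL/6 after TmT and -4.84 in C57BL/6 after oil.

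All 4 inhibitors were well above background on every array, and only Timp3 passed 2-fold. Timp1 was 1.44 in TRAMP after TmT, 1.26 in TRAMP after oil, 1.94 in C57BL/6 after TmT and 1.38 in C57BL/6 after oil. Timp2, which also takes part in Mmp2 activation by Mmp14, was 3.54 in TRAMP after TmT, 2.75 in TRAMP after oil, 2.93 in C57BL/6 after TmT and 2.89 in C57BL/6 after oil. Timp4 was 1.88 in TRAMP after TmT, 2.08 in TRAMP after oil, 1.99 in C57BL/6 after TmT and 1.74 in C57BL/6 after oil. The largest difference among these 3 was 0.79 ± 0.20, for Timp2 and TmT against oil in TRAMP. The 2 probes of Timp1 disagreed in sign for TmT against oil in C57BL/6, at 0.55 and -0.67. Timp3, the inhibitor that binds to the matrix, was 0.68 in TRAMP after TmT, 0.41 in TRAMP after oil, 1.45 in C57BL/6 after TmT and 1.72 in C57BL/6 after oil (probe at mm9 chr10:85811696-85811755). Both TRAMP arrays were again below both C57BL/6 arrays, by 0.77 ± 0.20 after TmT and by 1.32 ± 0.20 after oil, while TmT minus oil was 0.28 ± 0.20 in TRAMP and -0.27 ± 0.20 in C57BL/6.

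Among the Adamts genes, 1 passed 2-fold in each genotype comparison and none did in either treatment comparison. Adamts12 was -2.22 in TRAMP after TmT, -2.77 in TRAMP after oil, -3.36 in C57BL/6 after TmT and -2.48 in C57BL/6 after oil. TRAMP minus C57BL/6 was 1.14 ± 0.29 after TmT and -0.29 ± 0.23 after oil. Adamts1, which cuts versican and aggrecan, was 0.64 in TRAMP after TmT, -0.11 in TRAMP after oil, 0.68 in C57BL/6 after TmT and 1.00 in C57BL/6 after oil. Its genotype difference was -0.05 ± 0.20 after TmT and -1.11 ± 0.20 after oil, but its second probe gave -0.15 after oil. Just short of 2-fold, and named after their values were seen, were Adamts15 and Adamts20. Adamts15, a versican-cutting protease, was 0.48 in TRAMP after TmT, -0.26 in TRAMP after oil, -0.22 in C57BL/6 after TmT and 0.64 in C57BL/6 after oil. Its genotype differences were 0.69 ± 0.21 after TmT and -0.89 ± 0.20 after oil. Such a turn of sign was common among the members and was also seen in Mmp14, Mmp17, Mmp21, Mmp23, Adamts12 and Timp2. Adamts20, known from pigment cell development in the mouse, was 1.60 in TRAMP after TmT, 1.59 in TRAMP after oil, 2.56 in C57BL/6 after TmT and 1.69 in C57BL/6 after oil, so only the C57BL/6 TmT array was high. Over the 11 Adamts genes measured in each line, the median of TmT minus oil was 0.55 in TRAMP and -0.06 in C57BL/6. Over all genes measured it was 0.10 in TRAMP and 0.02 in C57BL/6. Where a gene had several measured probes (12 genes, 30 gene-by-comparison pairs), the probes differed by a median of 0.59 log2 units and took opposite signs in 11, and the largest gap was the 1.44 of Mmp9.

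Counted over the whole group, TRAMP against C57BL/6 after TmT gave 3 genes at least 2-fold higher (Mmp14, Mmp23 and Adamts12) and 1 lower (Mmp7) of 23 measured, where 8.45% of all 17251 genes measured were higher and 6.09% lower (14.5% either way). After oil, 1 was higher (Mmp9) and 5 were lower (Mmp2, Mmp7, Mmp14, Timp3 and Adamts1) of 28 measured, against 7.74% higher and 7.84% lower of 18921 genes (15.6% either way). The median difference of the members was -0.0037 after TmT and -0.17 after oil, beside 0.01 after TmT and -0.07 after oil for all genes measured. Only Mmp7 was past 2-fold in the same direction in both, 1 of 23, where 4.51% of the 16961 genes present throughout were the same way in both, 2.85% higher in both and 1.66% lower in both. Other than the number of lower genes after oil, these counts lie close to what the array as a whole gave.

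**Figure D2:**
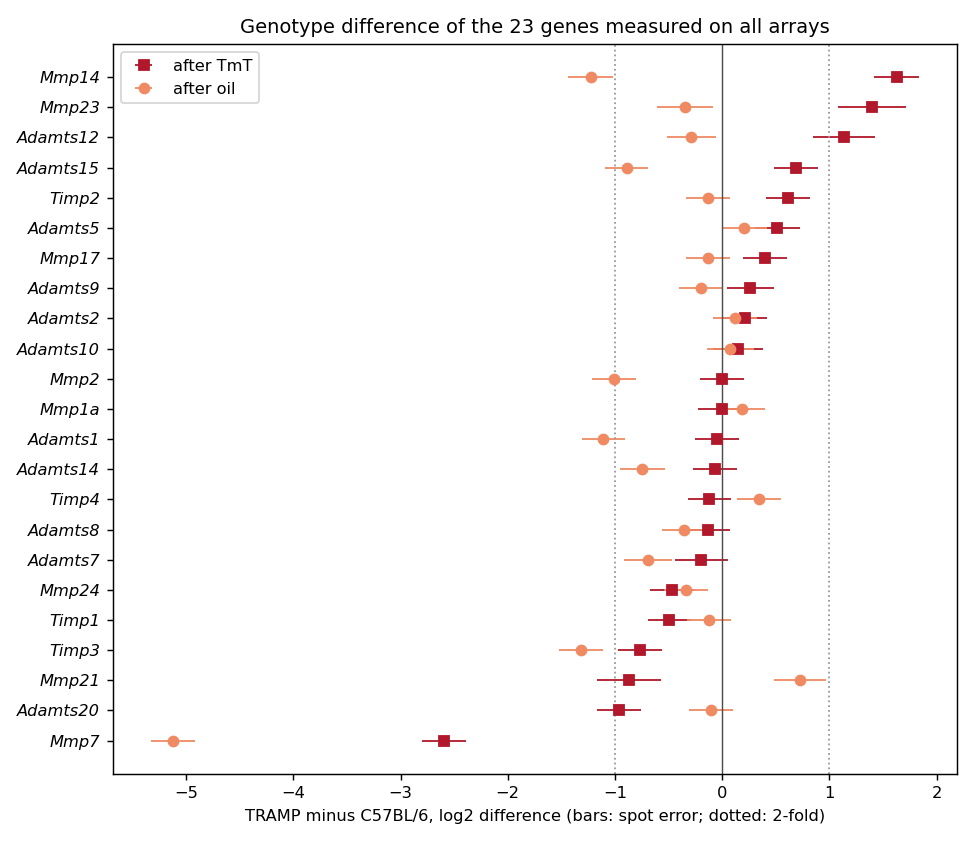
TRAMP minus C57BL/6, log2 difference, of the 23 genes present on all arrays, after TmT (squares) and after oil (circles); bars are spot error from the scanner software and dotted lines mark 2-fold. Mmp7 lies far to the left in both comparisons, at -2.59 after TmT and -5.12 after oil, and Mmp14 lies beyond the dotted line on the right after TmT (1.63) and on the left after oil (-1.23).

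TmT against oil in TRAMP gave 4 genes at least 2-fold higher (Mmp7, Mmp14, Mmp2 and Mmp23) and 0 lower of 24 measured, with 8.66% of 17465 genes higher and 4.86% lower (13.5% either way). The median was 0.50, beside 0.10 over all genes. In C57BL/6 the same treatment gave 1 higher (Mmp21) and 0 lower of 25 measured, with 3.12% of 18665 genes higher and 2.63% lower (5.74% either way), and the median was 0.08 beside 0.02 for all genes. No member passed 2-fold the same way in both lines, as 0.79% of all genes did (0.501% higher and 0.289% lower), and none in opposite directions (0.537% of all genes). The TRAMP oil array held the lowest value of 13 of the 23 genes (32.7% of all genes had their lowest value there) and the TRAMP TmT array that of 1 (25% of all genes), and both TRAMP against C57BL/6 after oil and TmT against oil in TRAMP use the TRAMP oil array, the one rich in adipocyte RNA. How far that array sets the 2 medians was not tested.

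**Figure D3:**
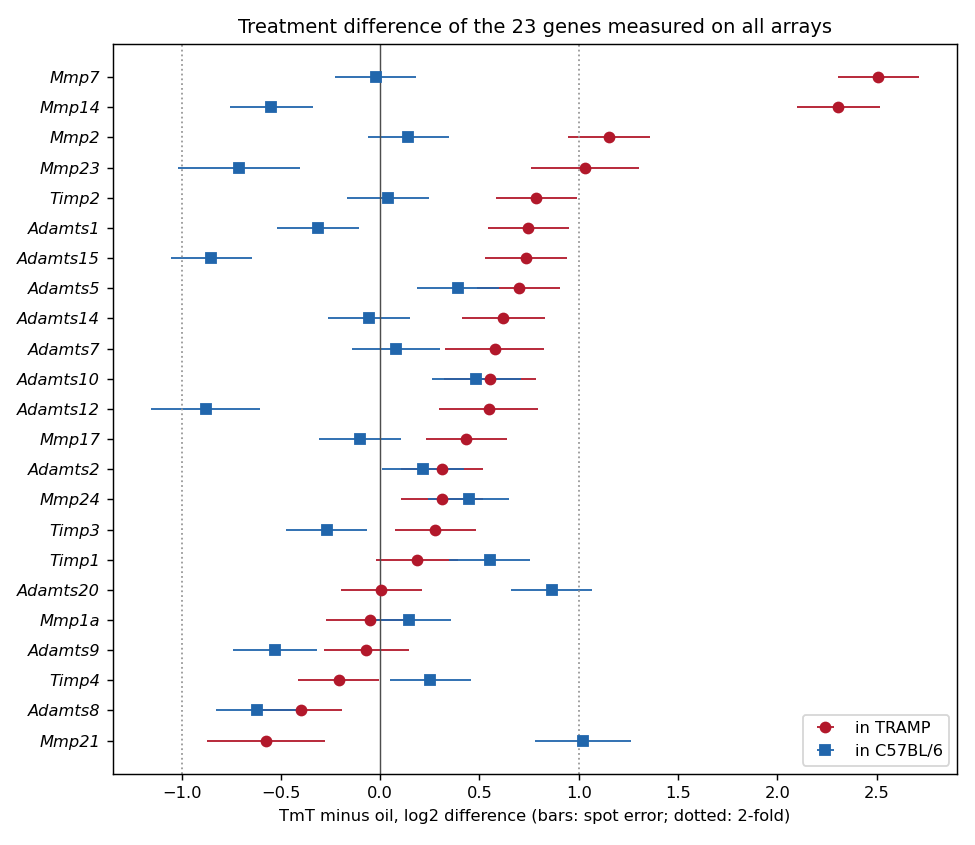
TmT minus oil, log2 difference, of the same 23 genes in TRAMP (circles) and in C57BL/6 (squares); bars are spot error and dotted lines mark 2-fold. In TRAMP Mmp7 (2.51), Mmp14 (2.31), Mmp2 (1.15) and Mmp23 (1.03) lie beyond 2-fold, and in C57BL/6 only Mmp21 (1.02) does.

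The medians of 3 stromal marker lists had the same signs as Mmp2 and Mmp14 in the 2 comparisons that use the TRAMP oil array. These signs were not particular to stroma, since the luminal, basal and skeletal muscle lists had them too. The 6 fibroblast markers, among them Col1a1, Dcn and Pdgfra, summed to 104.5 in TRAMP after TmT, 52.9 in TRAMP after oil, 104.8 in C57BL/6 after TmT and 120.1 in C57BL/6 after oil. For TmT against oil in TRAMP their median difference was 1.12, with 5 of 6 at least 2-fold higher, and for TRAMP against C57BL/6 after oil it was -0.76, with 1 of 6 at least 2-fold lower. Smooth muscle markers had medians of 0.60 and -0.81 in the same 2 comparisons, and endothelial markers 0.60 and -0.96. Single markers differed from their list: Tagln of smooth muscle was -0.48 for TmT against oil in TRAMP and 0.28 for TRAMP against C57BL/6 after oil, and Kdr of endothelium was -0.32 for TmT against oil in TRAMP. After oil, 1 of 5 smooth muscle and 2 of 6 endothelial markers were at least 2-fold lower in TRAMP than in C57BL/6. The luminal list had medians of 0.90 and -1.03, the basal list 0.50 and -0.86, and the skeletal muscle list 0.43 and -1.05. Macrophage markers were below 0 in both, at -0.22 and -0.40. Adipocyte markers went the other way, at -3.37 for TmT against oil in TRAMP and 2.54 for TRAMP against C57BL/6 after oil. The basal epithelium sum was 13.2 in TRAMP after TmT, 7.48 in TRAMP after oil, 13.2 in C57BL/6 after TmT and 14.9 in C57BL/6 after oil. The part of these cell types in the differences of the proteases was not tested.

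**Figure D4:**
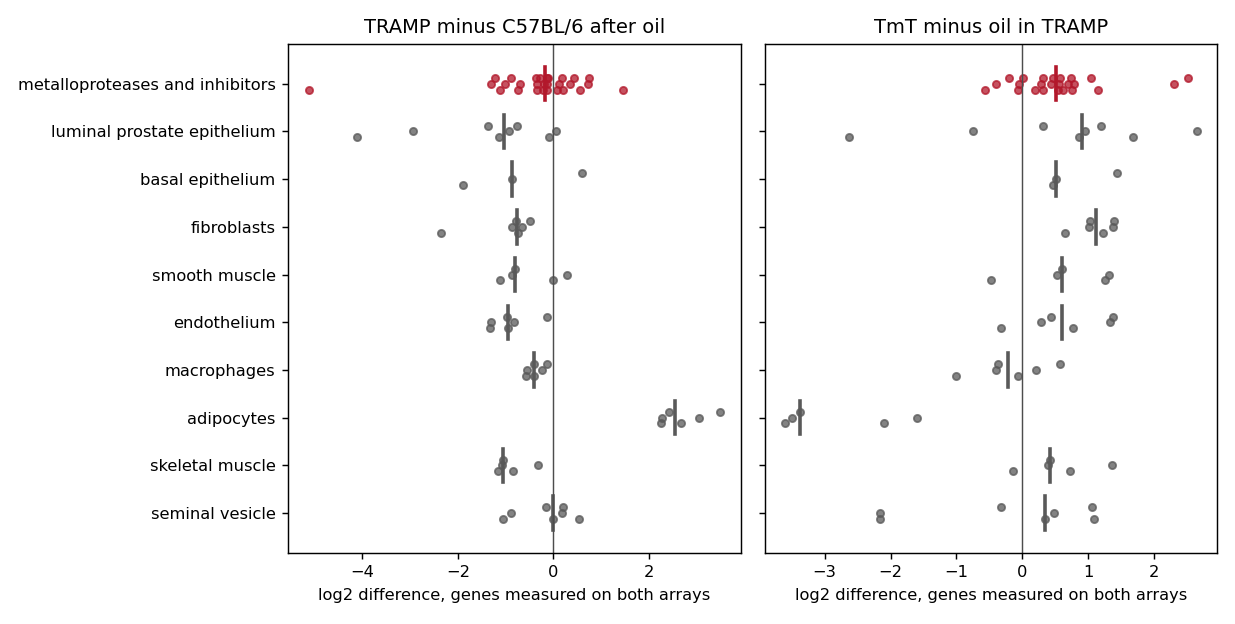
Log2 differences of single genes measured on both arrays for TRAMP minus C57BL/6 after oil (left) and TmT minus oil in TRAMP (right), for the metalloproteases and inhibitors and for marker lists of 9 cell or tissue types; short vertical lines are medians. The proteases have medians of -0.17 and 0.50, the fibroblast markers -0.76 and 1.12, and the adipocyte markers 2.54 and -3.37.

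Genes that act around the proteases were read from 4 lists, whose counts past 2-fold stand beside the shares of all genes: 8.66% higher and 4.86% lower for TmT against oil in TRAMP, 3.12% and 2.63% in C57BL/6, and for TRAMP against C57BL/6 8.45% and 6.09% after TmT and 7.74% and 7.84% after oil. Of 26 activators and modulators, such as plasminogen activators, proprotein convertases and proteoglycan inhibitors, 14 were measured for TmT against oil in TRAMP. Of these, 7 lay at or above 2-fold and 0 at or below the same step downward, and their median difference was 0.87, beside 0.10 over all genes. Those 7, named after their values were seen, were Plau (2.27), Spock2 (1.66), Spock1 (1.64), Reck (1.35), Plat (1.25), Lcn2 (1.17) and Pcsk5 (1.07). Plau, the urokinase that turns plasminogen into plasmin, was 5.14 in TRAMP after TmT, 2.87 in TRAMP after oil, 4.64 in C57BL/6 after TmT and 3.96 in C57BL/6 after oil. Reck, a membrane-anchored inhibitor of metalloproteases, was 0.44 in TRAMP after TmT, -0.91 in TRAMP after oil, -0.53 in C57BL/6 after TmT and -0.17 in C57BL/6 after oil, so an inhibitor was high on the same array as the activator. In C57BL/6 0 of 18 modulators passed 2-fold. TRAMP against C57BL/6 gave 0 higher and 1 lower of 14 after TmT, with a median of 0.31, and 0 higher and 5 lower of 16 after oil, with a median of -0.69 beside 7.84% lower and a median of -0.07 over all genes (Ctsg and, named after their values were seen, Spock1, Hpn, Plau and Spock2). Ctsg, cathepsin G, a protease of mast cells and neutrophils, was the only listed gene at least 2-fold lower in both, at -1.55 in TRAMP after TmT, -2.20 in TRAMP after oil, -0.03 in C57BL/6 after TmT and 0.19 in C57BL/6 after oil.

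Of 15 substrate genes on the array, proteoglycans, elastin and fibronectin among them, 4 of 14 were at least 2-fold higher and 0 lower for TmT against oil in TRAMP (median 0.50, beside 8.66% higher, 4.86% lower and a median of 0.10 over all genes), and 0 were higher and 1 lower of 14 in C57BL/6 (median -0.24). Named after their values were seen, the 4 were the elastin gene Eln (1.88), the small proteoglycans Dcn (1.37) and Lum (1.03), and Reln (1.05), and the lower one in C57BL/6 was the fibrillin gene Fbn1 (-1.01). TRAMP against C57BL/6 gave 2 higher (Fbn1, 1.27, and Reln, 1.12) and 0 lower of 13 after TmT (median 0.02), and 1 higher (Ncan, 1.56) and 2 lower (Dcn, -2.36, and Eln, -2.20) of 15 after oil (median -0.60). Dcn and Lum stand in this list and among the fibroblast markers. The 10 ADAM proteases of the membrane, which shed cell surface proteins, had no gene past 2-fold except 1 lower of 9 for TmT against oil in C57BL/6 (Adam10, -1.10, named after its value was seen), and their median for TmT against oil in TRAMP was -0.27. Of the 7 ADAMTS-like genes, which lack the protease domain, only 2 were present on all arrays, and none of those measured on both arrays of a comparison passed 2-fold. Adamtsl1 and Adamtsl3 were well above background on the C57BL/6 arrays only, and lower limits were not worked out for list genes.

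Both factors were also fitted together in limma, with genotype and treatment as additive terms over the 4 arrays, which leaves 1 residual degree of freedom and takes any difference of the treatment response between the lines as error. None of the 29 members fitted reached an adjusted p under 0.05 (Benjamini-Hochberg over 19925 genes) in either term, where 0.136% of all genes (27) did for genotype and 0 for treatment. At an unadjusted p under 0.05 there were 3 members for genotype and 0 for treatment, against 15.1% and 6.26% of all genes. Those 3 were Mmp7 at -3.86 ± 0.63 (SE; limma adjusted p = 0.0902), Mmp28 at 1.92 ± 0.59 (limma adjusted p = 0.242), whose fit includes a value that was not well above background, and Timp3 at -1.04 ± 0.34 (limma adjusted p = 0.261). Mmp14 had a genotype term of 0.20 ± 0.69 (limma adjusted p = 0.916). Whether TmT acted differently in the 2 lines was not tested, since with 1 array a group that difference is the error of the fit.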

How the data were processed

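RNA from whole prostates was extracted with RNeasy kits, labelled with Cy3 and hybridised to 1-colour Agilent mouse arrays, per the labels' protocols. The deposited intensity values are the processed signals of Agilent Feature Extraction 10.2.1.3, background-subtracted and, on every array except TRAMP TmT, detrended, per the file headers. The detrending surface is a deposited ratio per spot that divides the signal where applied. Probe positions are on mm9, per the file headers. In the series value table, all 45018 features had this same intensity, which makes it linear and uncentred. All 4 arrays lay on 1 slide with 1 scan time.

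Control spots and outlier flags were left out, log2 of each intensity was centred on the array's 75th percentile, and spots were averaged per probe. Symbols are those of the files; 59 of 72 member probes matched RefSeq by accession and 0 changed name. Exon and untranslated-region annotation under the probes was not used here. The 4 pairs of arrays were compared without a test, at 2-fold. The two-factor fit used limma 3.58.1 (R 4.3.3) on genes that were well above background on 2 or more arrays, tested on simulated data. Named members were all Timp genes, Mmp2, Mmp7, Mmp9, Mmp14 and those with a 2-fold difference or limit in any comparison; Mmp1a was added for its span. Of the list genes, the rule took those past 2-fold the same way in both genotype or both treatment comparisons. The members, lists and markers were chosen with earlier results of these data known. Alternatives were normexp background correction (offset 50), quantile and median normalization, detrending undone, the mean over all probes, no background filter, the deposited value table and a 3-fold threshold; normexp without spots of high local background and detrending of all arrays were added after seeing the data.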

Additional observations from a re-analysis of the deposited data

Results flagged for a closer look

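The genotype difference of Mmp14 took opposite signs in the 2 treatments. TRAMP minus C57BL/6 was 1.63 after TmT and -1.23 after oil on the log2 scale, each from 1 array against 1 array. The difference between the 2 was not tested, since 1 array a group gives no spread between mice.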

How the results depend on the processing

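No paired analysis was possible because each group has 1 array and no replicate numbers. Mmp7 stayed past 2-fold lower in both genotype comparisons under every alternative. Of the 48 differences of named genes, median centring and quantile normalization moved none by more than the spot error. The deposited table holds the same intensities as the main values, so it could move none. Plain normexp moved 41 and reversed 1, and normexp without spots of high local background moved 29. The mean over all probes moved 14, undoing the detrending 13 and detrending all arrays 4. For genotype after TmT, the count of 4 became 1 with normexp, 1 with normexp without spots of high local background, 12 with no background filter and 2 at 3-fold. Its split of 3 higher and 1 lower became 3 and 2 with median centring, which turned that of all genes to 1193 higher and 1358 lower from 1457 and 1050. For genotype after oil, the count of 6 became 2, 2, 11 and 1 under these and 3 with detrending undone. For TmT against oil in TRAMP, 4 became 10, 2, 13 and 2 under them, 2 with detrending undone and 7 with the mean over all probes; in C57BL/6, 1 became 12, 0, 8 and 0, and 3 with the mean. Without the background filter 2 genes (Mmp7 and Mmp8) were lower in both genotype comparisons, and 1 (Mmp8) was higher in both treatment comparisons, where plain normexp gave 8 genes the same way in both, 5 higher and 3 lower. Plain normexp, whose fit on the 2 TmT arrays included spots with local background of up to 659409, put Mmp7 at -0.28 for TmT against oil in TRAMP, the reverse sign, and called 18 of 29 members for treatment beside 9386 higher and 5474 lower of 19919 genes. Leaving those spots out gave 2 members for genotype (Mmp7, Timp3) and 1 for treatment (Mmp7) in limma, with a prior spread that let no gene vary on its own. The adjusted p of Mmp7 for genotype ran from 6.36e-52 there to 0.823 with plain normexp and was between 0.071 and 0.145 elsewhere. Detrending undone put Mmp9 at 0.31 for genotype after oil; the cause was not tested. The dim TRAMP TmT array limits weak genes most.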
